A study of Mus musculus with 12 samples.

Results

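The genes described here are 10 in number: the chemokines Cxcl1, Cxcl2, Cxcl5, Cxcl10, Cxcl16, Ccl2, Ccl5, Ccl7 and Ccl20, and Ccrl2, which encodes a chemokine receptor-like protein. They were taken by gene symbol from a list drawn up with earlier results of these data known, and each had 1 probe set with a single gene symbol, so all 10 were measured among the 19937 named genes of the table. The mean level was highest in the line carrying full-length Mkl1 (FL) for the 9 ligands, and in the B1-mutant line (mutB1) for Ccrl2. For Cxcl10, Cxcl16, Ccl5 and Ccl20 the difference between FL and the next line did not pass the test. Below FL, the means of Ccl2, Ccl7, Cxcl10, Ccl5 and Ccl20 followed the order mutB1, ΔSAP, control, and those of Cxcl1, Cxcl5 and Cxcl16 the order ΔSAP, control, mutB1, though not every step passed the test.

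The samples were 4 stable derivatives of 4T1 (mouse mammary carcinoma cells, BALB/cfC3H background), and each was measured on 3 arrays. The labels call them control, FL, mutB1 and ΔSAP. Mkl1 (current symbol Mrtfa) is a coactivator that works with serum response factor (Srf) and responds to the state of actin. The names are read here as full-length Mkl1, Mkl1 with a mutated B1 region, known for binding Srf, and Mkl1 without its SAP domain, a putative DNA-binding motif. What the control line carries was not given in the sources used here. All lines shared 48 h in medium with 0.03% serum and received no further treatment, and RNA was hybridised to Affymetrix Mouse Gene 1.0 ST arrays. Each construct is represented by 1 stable line, so construct and line cannot be told apart, and the p-values measure only the spread between the 3 arrays of a line.

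Chemokines are small secreted proteins that bind G protein-coupled receptors on leukocytes and draw them along a concentration gradient. Cxcl1, Cxcl2 and Cxcl5 act on neutrophils through Cxcr2, and Ccl2 and Ccl7 act on monocytes through Ccr2. Cxcl10 attracts activated T cells through Cxcr3, Ccl5 attracts T cells and monocytes, and Cxcl16, a membrane-anchored ligand that can be shed, attracts T and NKT cells through Cxcr6. Ccl20 acts on Ccr6 of Th17 cells and immature dendritic cells and stands here with the T cell attractants. Ccrl2 is an atypical receptor that binds the attractant chemerin without signalling in the classical way. Tumour cells can make many of these ligands, and NF-kB and interferon signalling are known inducers of several.

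Values are log2 expression values made by the authors with robust multi-array averaging (RMA). Array medians ran from 6.345 to 6.455. RMA values carry no detection call, and line means below 6.345 are described as low; that level was set with the values in view, and such signal may be background. Mkl1 itself was at 12.08 ± 0.06 in FL, 11.92 ± 0.04 in ΔSAP and 11.29 ± 0.11 in mutB1, against 9.27 ± 0.01 for control (mean ± SD, n = 3 arrays). Its level in FL exceeded that in mutB1 by 0.79 (limma adjusted p = 2.79e-06), and ΔSAP exceeded mutB1 by 0.63 (adjusted p = 1.73e-05). The part of the Mkl1 level in the chemokine differences was not tested. The epithelial keratins Krt8 and Krt18 lay between 12.55 and 13.20 in all lines. Krt7, Krt19, Epcam and Cdh1 were lowest in mutB1 and highest in ΔSAP. Mean Epcam was 6.41 in mutB1, 8.26 in FL, 8.44 in control and 10.14 in ΔSAP. The mean over the 7 epithelial markers spanned 9.88 to 9.92 in control and 9.96 to 9.97 in FL. In mutB1 it spanned 8.73 to 8.76, and in ΔSAP 10.43 to 10.46. At a limma adjusted p of at most 0.01, 2 were higher and 2 lower in FL than in control (9.61% and 10.4% of all probe sets). The numbers were 0 and 5 in mutB1 (5.83% and 6.89%), and 4 and 0 in ΔSAP (6.96% and 7.83%). Of 13 leukocyte markers measured, 10 were low in every line, among them the pan-leukocyte gene Ptprc at 4.52 to 4.70. The mean over the leukocyte list spanned 5.20 to 5.25 in control, 5.22 to 5.24 in FL, 5.25 to 5.31 in mutB1 and 5.10 to 5.16 in ΔSAP. The exceptions were Cd68, at 8.53 in mutB1 to 9.58 in FL, S100a8, at 5.49 in ΔSAP to 7.59 in mutB1, and Cd3e, at 6.32 to 6.51. The fibroblast list averaged 7.62 to 7.67 in mutB1 and 6.64 to 6.97 in the other lines, with Pdgfrb at 10.29 in mutB1 and 6.85 in control. Of its 8 genes, only Pdgfrb and Fbln1 were higher in mutB1 than in control at a limma adjusted p of at most 0.01. In that comparison 0 were lower, and of all probe sets 5.83% were higher and 6.89% lower. The median change of the list there was -0.02. In FL against control, 1 gene of the fibroblast list was higher and 2 lower (9.61% and 10.4% of all probe sets). ΔSAP against control also gave 1 and 2 (6.96% and 7.83%). Mean Fbln1 was 7.98 in FL and 8.06 in ΔSAP against 6.99 in control. Mean Pdgfra was 9.38 in FL and 9.74 in ΔSAP against 10.76 in control. The part of these markers in the chemokine differences was not tested. In bulk RNA, fewer cells expressing a gene and less RNA per cell cannot be told apart.

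Each of the 10 genes differed between at least one pair of lines. A member is called here at a limma adjusted p of at most 0.01 over all 34760 probe sets, and each log2 change is the line named first minus the other. The F test over the 4 lines called 10 of 10 members, against 27.7% of probe sets. Against control, FL had 9 members up and 0 down (9.61% and 10.4% of all probe sets), mutB1 had 6 up and 2 down (5.83% and 6.89%), and ΔSAP had 5 up and 1 down (6.96% and 7.83%). FL had 6 up and 1 down against mutB1 (8.82% and 9%) and 8 up and 0 down against ΔSAP (5.73% and 5.7%). ΔSAP had 2 up and 3 down against mutB1 (7.07% and 8%).

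The median change of the 10 members was 1.11 in FL against control, 0.59 in mutB1 against control and 0.35 in ΔSAP against control. Over all probe sets the medians were -0.01, -0.001 and -0.03. FL exceeded mutB1 by a median of 0.49 and ΔSAP by 0.92, with medians over all probe sets of -0.004 and 0.03, and ΔSAP against mutB1 had a median of -0.34 beside -0.03. With the 2-fold filter and the minimum mean of 4 named in the series design text, 6 members changed in FL against control (1.83% of probe sets), 2 in FL against mutB1 (1.6%) and 5 in FL against ΔSAP (0.503%). The same filter left 2 in mutB1 against control (1.21%), 2 in ΔSAP against control (1.34%) and 2 in ΔSAP against mutB1 (1.42%). The 3 arrays of both lines did not overlap for 9 higher and 1 lower member in FL against control (39.7% of probe sets in either direction), 8 and 1 in FL against mutB1 (40.2%), and 9 and 0 in FL against ΔSAP (32.1%). The numbers were 7 and 2 in mutB1 against control (33.6%), 6 and 1 in ΔSAP against control (36.3%), and 3 and 6 in ΔSAP against mutB1 (38.2%). These comparisons share lines, so their counts are not independent of each other.

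**Figure D1:**
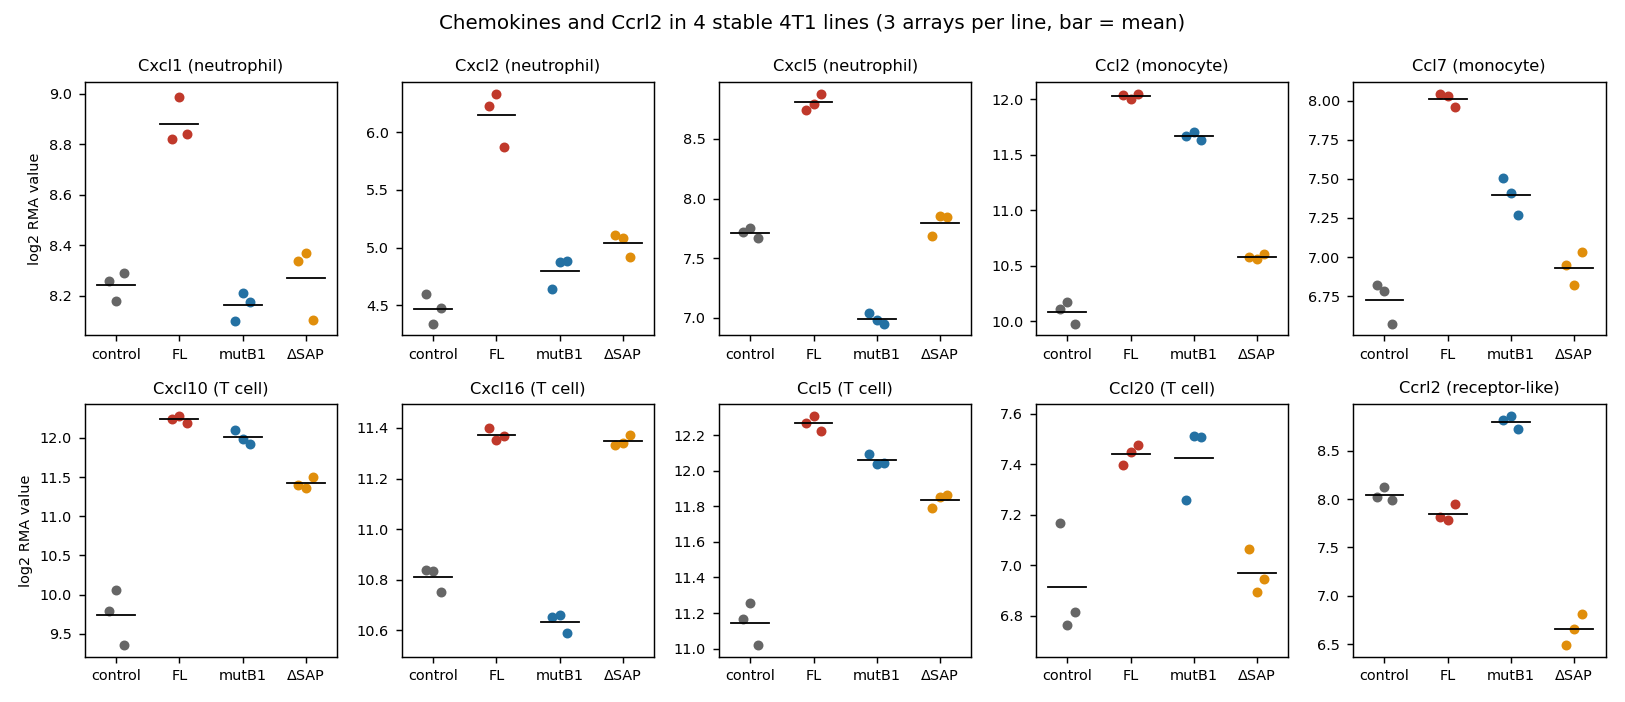
Log2 RMA values of the 10 genes (vertical axes, a separate scale in each panel) in the control, FL, mutB1 and ΔSAP lines; each point is 1 of 3 arrays and each bar a line mean. The FL mean is highest for the 9 ligands, reaching 12.24 for Cxcl10. For Cxcl10, Cxcl16, Ccl5 and Ccl20 the difference between FL and the next line is not called. The Ccrl2 mean is highest in mutB1 at 8.80 and lowest in ΔSAP at 6.65.

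The neutrophil attractants Cxcl1, Cxcl2 and Cxcl5 rose in FL against every other line. RefSeq promoter windows of assembly GRCm38.p6 were found for 5 of the 10 members: Ccl20, Ccrl2, Cxcl1, Cxcl2 and Cxcl10. The stretches before the start sites of Cxcl1 and Cxcl2 are shown because these genes are neighbours on the chromosome and both rose in FL, and that of Cxcl10 because its levels spread furthest. They lie at chr5:90891125-90891244 (plus strand), chr5:90903779-90903898 (plus strand) and chr5:92348890-92349109 (minus strand), and each is printed 5′ to 3′ on the gene's strand, ending at the base before the start. Capitals mark matches to the NF-kB consensus and, in Cxcl10, the first run of capitals marks the interferon-stimulated response element core TTTCNNTTTC on the opposite strand.
Cxcl1: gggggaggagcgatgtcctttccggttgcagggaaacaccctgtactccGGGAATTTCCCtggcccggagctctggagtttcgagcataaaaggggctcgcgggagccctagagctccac
Cxcl2: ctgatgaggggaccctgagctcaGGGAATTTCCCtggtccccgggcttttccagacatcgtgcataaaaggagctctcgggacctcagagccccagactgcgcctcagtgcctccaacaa
Cxcl10: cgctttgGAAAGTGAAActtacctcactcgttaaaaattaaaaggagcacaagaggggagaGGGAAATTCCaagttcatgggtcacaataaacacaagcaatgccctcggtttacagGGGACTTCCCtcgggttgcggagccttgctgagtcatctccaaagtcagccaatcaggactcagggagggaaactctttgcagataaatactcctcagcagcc

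Cxcl1 and Cxcl2 carry the same 11 capital letters, where matches on both strands overlap, ending 61 and 87 bases before their starts. Cxcl10 has NF-kB matches beginning 159 and 103 bases before its start, and the interferon element core begins 213 bases before it. On either strand the NF-kB consensus matched 4.51% of all 32851 windows of the same length, 250 bases before to 50 after a start, and the interferon core 3.44%. The Ccl20 window and 1 of 3 Ccrl2 windows also held an NF-kB match. The AP-1 motif TGANTCA occurred in the Cxcl10 window among these and in 7.81% of all windows. The CArG box, the motif bound by Srf, matched 1.63% of all windows and none of these, which says only that those letters are not in these windows. Such matches describe the letters and show neither a bound site nor a cause. The motif letters were settled after others had been tried on these windows.

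Cxcl5, a neutrophil attractant abundant in mouse epithelium, read 7.72, 7.75 and 7.67 in the control arrays, 8.74, 8.80 and 8.88 in FL, 7.04, 6.98 and 6.95 in mutB1, and 7.68, 7.86 and 7.84 in ΔSAP. All FL arrays lay above, and all mutB1 arrays below, every array of the other lines, and the control and ΔSAP arrays overlapped. FL exceeded control by 1.09 ± 0.06 (SE, limma adjusted p = 2.51e-07), a 2.14-fold difference, and mutB1 fell below control by 0.72 ± 0.06 (adjusted p = 8.67e-06). FL was 3.52-fold above mutB1 (1.82 ± 0.06, limma adjusted p = 8.38e-09). FL was 2.02-fold above ΔSAP (1.01 ± 0.06, limma adjusted p = 2.34e-06), and ΔSAP lay 0.80 above mutB1 (adjusted p = 3.48e-06). ΔSAP and control differed by 0.08, with a 95% interval of -0.04 to 0.21.

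Cxcl1, a ligand of Cxcr2 also known as KC, read 8.26, 8.18 and 8.29 in control, 8.82, 8.99 and 8.84 in FL, 8.10, 8.21 and 8.17 in mutB1, and 8.34, 8.37 and 8.10 in ΔSAP. All FL arrays were above all others, and the arrays of the remaining lines overlapped. The rise in FL was 0.64 ± 0.07 over control (SE, limma adjusted p = 8.59e-05), 0.72 ± 0.07 over mutB1 (adjusted p = 4.68e-05) and 0.61 ± 0.07 over ΔSAP (adjusted p = 0.000284). The remaining pairs differed by at most 0.11 in size, and their 95% intervals lay between -0.25 and 0.27.

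Cxcl2, the close relative also known as MIP-2, read 4.59, 4.34 and 4.47 in control, 6.23, 6.33 and 5.88 in FL, 4.64, 4.88 and 4.88 in mutB1, and 5.11, 5.09 and 4.92 in ΔSAP. The FL arrays were the highest and the control arrays the lowest. Every line mean was low, so part of this signal may be background, and probes of the close relatives Cxcl1 and Cxcl2 may share signal. FL exceeded control by 1.68 ± 0.12 (SE, limma adjusted p = 2.65e-06), mutB1 by 1.35 ± 0.12 (adjusted p = 1.71e-05) and ΔSAP by 1.11 ± 0.12 (adjusted p = 0.000142). ΔSAP exceeded control by 0.57 ± 0.12 (limma adjusted p = 0.00659), a call that held without FL replicate 2, FL replicate 3 or mutB1 replicate 1 and was lost without any other single array (adjusted p of 0.0017 to 0.0269 over the 12 omissions). mutB1 against control gave 0.33, with a limma adjusted p of 0.0924.

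In the RefSeq gene order Ppbp, Pf4, Cxcl3 and Cxcl15 lie between Cxcl5 and Cxcl1; these genes were chosen after their values were seen. They were low in every line. Ppbp, the platelet basic protein precursor that also yields a Cxcr2 ligand, read 5.90, 5.93 and 5.92 in FL, above its 5.26 to 5.48 in control, 5.14 to 5.61 in mutB1 and 5.34 to 5.48 in ΔSAP. Its rise in FL over control was 0.54 (limma adjusted p = 0.00322). That call was lost without control replicate 2 or 3 or any 1 FL array, with an adjusted p of up to 0.0158. Cxcl3, another Cxcr2 ligand, and Pf4, platelet factor 4, did not pass the F test (limma adjusted p = 0.162 and 0.275). Cxcl15, a chemokine known from lung, had a mean of 4.20 in FL and 4.56 in mutB1, a change of -0.36 (limma adjusted p = 0.00892) in the opposite direction to Ppbp.

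**Figure D2:**
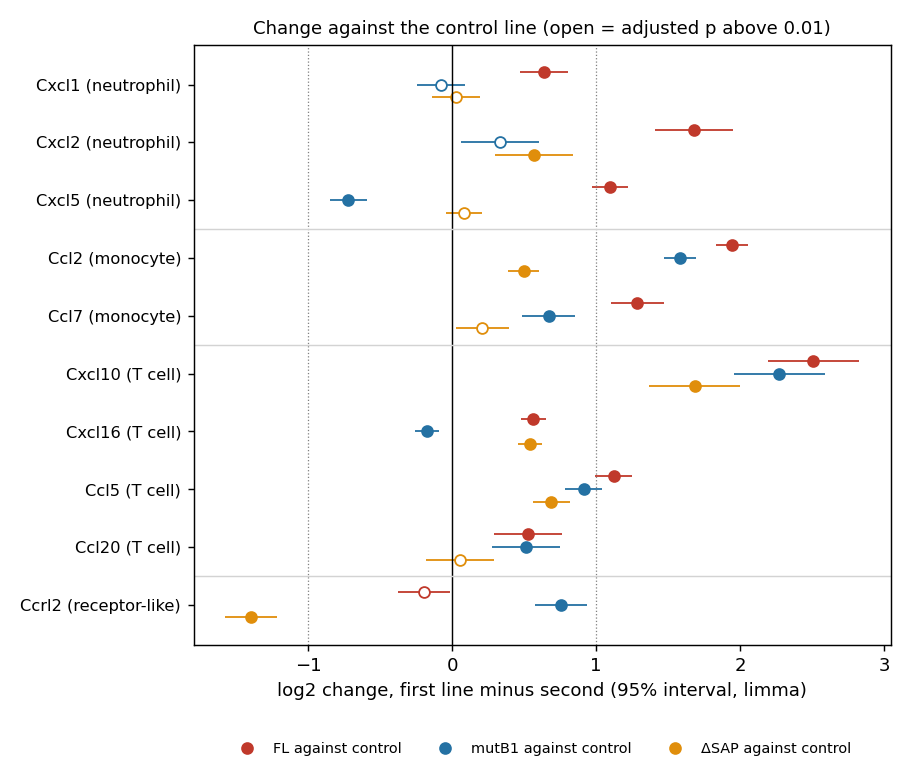
Log2 change of each gene in FL, mutB1 and ΔSAP against the control line (horizontal axis) with unadjusted 95% limma intervals; filled points have an adjusted p of at most 0.01 and dotted lines mark a 2-fold change. The neutrophil attractants are called above control in FL, and Cxcl2 also in ΔSAP. The monocyte attractants are called in FL and mutB1, and Ccl2, Cxcl10 and Ccl5 in every construct line, up to 2.51 for Cxcl10 in FL.

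The means of the monocyte attractants Ccl2 and Ccl7 followed another order, FL above mutB1 above ΔSAP above control. Ccl2, the main ligand of Ccr2 and a recruiter of monocytes to tumours, read 10.11, 10.18 and 9.98 in control, 12.04, 11.999 and 12.05 in FL, 11.67, 11.70 and 11.64 in mutB1, and 10.58, 10.56 and 10.60 in ΔSAP. No arrays of different lines overlapped. FL was 3.84-fold above control (1.94 ± 0.05, SE, limma adjusted p = 1.81e-09). The rise over control was 1.58 ± 0.05 in mutB1 (limma adjusted p = 6.91e-09) and 0.50 ± 0.05 in ΔSAP (adjusted p = 4.15e-05). All 3 steps in the order passed the test: FL over mutB1 by 0.36 ± 0.05 (limma adjusted p = 0.000317), mutB1 over ΔSAP by more than 2-fold, where ΔSAP minus mutB1 was -1.09 ± 0.05 (adjusted p = 1.12e-07), and ΔSAP over control.

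Ccl7, a ligand of Ccr2 and other CC receptors encoded next to Ccl2, read 6.82, 6.78 and 6.58 in control, 8.04, 8.03 and 7.96 in FL, 7.51, 7.41 and 7.27 in mutB1, and 6.95, 6.82 and 7.03 in ΔSAP. FL stood apart from mutB1, and both from control and ΔSAP, whose arrays met at 6.82. FL exceeded control by 1.28 ± 0.08 (SE, limma adjusted p = 1.1e-06), mutB1 by 0.61 ± 0.08 (adjusted p = 0.00027) and ΔSAP by 1.08 ± 0.08 (adjusted p = 1.47e-05). The mutB1 line exceeded control by 0.67 ± 0.08 (limma adjusted p = 0.000208). ΔSAP minus mutB1 was -0.46 ± 0.08 (limma adjusted p = 0.0022), lost without mutB1 replicate 1 (adjusted p = 0.0104) or ΔSAP replicate 2 (adjusted p = 0.0103), and with the 2 lines fitted alone (adjusted p = 0.0152). ΔSAP and control differed by 0.21, with a 95% interval of 0.02 to 0.39 and a limma adjusted p of 0.104.

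In mutB1 against control, 0 of 3 neutrophil attractants rose and 1 fell, while 2 of 2 monocyte attractants rose (5.83% of probe sets rose and 6.89% fell). In ΔSAP against mutB1, 1 of 3 neutrophil attractants rose (Cxcl5) and 2 of 2 monocyte attractants fell (7.07% and 8%). In ΔSAP against control, 1 of 3 neutrophil attractants (Cxcl2) and 1 of 2 monocyte attractants (Ccl2) rose and 0 fell (6.96% and 7.83%). In FL, 3 of 3 and 2 of 2 rose against control, against mutB1 and against ΔSAP (9.61%, 8.82% and 5.73% of probe sets rose). The difference between these groups of genes was not itself tested.

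The T cell attractants did not share a single order. Cxcl10 and Ccl5, both known interferon-inducible genes, rose in every construct line against control. Cxcl16 rose in FL and ΔSAP and was lower in mutB1 than in control. Ccl20 was higher in FL and mutB1 than in control.

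Cxcl10 had the widest spread of line means, 2.51. Its arrays read 9.79, 10.07 and 9.35 in control, 12.25, 12.29 and 12.19 in FL, 12.10, 11.99 and 11.93 in mutB1, and 11.39, 11.36 and 11.51 in ΔSAP. The lines did not overlap, and the control arrays were the most scattered, with an SD of 0.36 against 0.05 to 0.09 elsewhere. FL was 5.69-fold above control (2.51 ± 0.14, SE, limma adjusted p = 4.58e-07). The mutB1 line was 4.83-fold above control (2.27 ± 0.14, limma adjusted p = 1.43e-06) and ΔSAP 3.22-fold (1.68 ± 0.14, adjusted p = 1.27e-05).

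FL exceeded ΔSAP in Cxcl10 by 0.82 ± 0.14 (limma adjusted p = 0.00235). That call was lost without FL replicate 1 (adjusted p = 0.0106) or 2 (0.0117) or ΔSAP replicate 1 (0.0102) or 2 (0.0114). FL and mutB1 differed by 0.24, with a 95% interval of -0.08 to 0.55. ΔSAP minus mutB1 was -0.59 (limma adjusted p = 0.0127), and passed without control replicate 2 (adjusted p = 0.00256) or 3 (adjusted p = 0.000594). It passed in 4 of 8 other settings of normalization, filters and fit, among them the 2 lines fitted alone. Over those 8 the limma adjusted p ran from 0.00272 to 0.0184.

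Ccl5, also called RANTES, read 11.16, 11.26 and 11.02 in control, 12.27, 12.31 and 12.22 in FL, 12.10, 12.04 and 12.05 in mutB1, and 11.79, 11.85 and 11.86 in ΔSAP. As for Cxcl10, the order was FL, mutB1, ΔSAP and control, with no overlap between lines. The rises over control were 1.12 ± 0.06 in FL (SE, limma adjusted p = 2.35e-07), 0.91 ± 0.06 in mutB1 (adjusted p = 1.55e-06) and 0.69 ± 0.06 in ΔSAP (adjusted p = 1.24e-05). FL exceeded ΔSAP by 0.43 ± 0.06 (limma adjusted p = 0.000493). The neighbouring steps did not pass: FL over mutB1 was 0.21 (limma adjusted p = 0.0232) and ΔSAP minus mutB1 was -0.23 (adjusted p = 0.0169). The first passed without control replicate 3 (adjusted p = 0.00655), and the second without control replicate 2 (0.00844) or 3 (0.00491). Of 8 other settings of normalization, filters and fit, the first passed in 1 (limma adjusted p of 0.0096 to 0.0721). The second passed in 2 of those 8 (limma adjusted p of 0.0066 to 0.0232).

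Cxcl16 read 10.84, 10.83 and 10.75 in control, 11.40, 11.35 and 11.37 in FL, 10.65, 10.66 and 10.59 in mutB1, and 11.33, 11.34 and 11.37 in ΔSAP. FL and ΔSAP overlapped and lay above control, and mutB1 lay below control. FL rose by 0.56 ± 0.04 (SE, limma adjusted p = 1.58e-06) and ΔSAP by 0.54 ± 0.04 (adjusted p = 3.53e-06) over control. Over mutB1, FL was higher by 0.74 ± 0.04 (limma adjusted p = 3.12e-07) and ΔSAP by 0.71 ± 0.04 (adjusted p = 4.01e-07). FL and ΔSAP differed by 0.02, with a 95% interval of -0.06 to 0.11. The mutB1 value was 0.17 below control, a change of -0.17 (limma adjusted p = 0.00816), which held only without control replicate 3 (adjusted p = 0.00727) and was lost without any other single array, at up to 0.0368. It was also lost with median centring of the arrays (adjusted p = 0.0179) and with the 2 lines fitted alone (0.0569).

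The metalloproteases Adam10 and Adam17 shed Cxcl16 from the cell surface. Mean Adam10 was 10.60 in FL, 10.75 in ΔSAP and 10.88 in mutB1 against 10.81 for control, and mean Adam17 10.88, 10.89 and 10.71 against 11.11. Both fell in FL against control, with changes of -0.21 (limma adjusted p = 0.00324) and -0.23 (adjusted p = 0.00451). The fall of Adam17 was not particular to FL: mutB1 minus control was -0.41 and ΔSAP minus control was -0.22, both called. Adam10 was called in neither of these, with changes of 0.07 and -0.06. Of all probe sets, 10.4% were lower for FL, 6.89% for mutB1 and 7.83% for ΔSAP.

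Ccl20 read 7.17, 6.76 and 6.81 in control, 7.40, 7.45 and 7.47 in FL, 7.26, 7.51 and 7.51 in mutB1, and 7.06, 6.90 and 6.94 in ΔSAP. FL overlapped mutB1, and control overlapped ΔSAP. FL exceeded control by 0.52 ± 0.11 (SE, limma adjusted p = 0.00362), and mutB1 exceeded control by 0.51 ± 0.11 (adjusted p = 0.00643). With the 2 lines fitted alone the adjusted p was 0.0190 for FL and 0.0543 for mutB1. The FL call was lost without control replicate 2 (adjusted p = 0.0155) or 3 (0.0176) or any 1 FL array (0.0107 to 0.0154). The mutB1 call held without control, mutB1 or ΔSAP replicate 1 and was lost without any other single array, at up to 0.0298.

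Ccl20 in ΔSAP against mutB1 was -0.46 (limma adjusted p = 0.0103), and in FL against ΔSAP 0.47 (adjusted p = 0.0109). The first passed without control replicate 1 (adjusted p = 0.00184) or 2 (0.00936) or mutB1 replicate 1 (0.00719). The second passed without control replicate 1 (adjusted p = 0.00212) or mutB1 replicate 1 (0.00896). Of 8 other settings of normalization, filters and fit, the first passed in 5 (limma adjusted p of 0.00509 to 0.0242). The second passed in 4 of those 8 (limma adjusted p of 0.0051 to 0.0276).

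Ccrl2 had its own pattern, highest in mutB1 and lowest in ΔSAP. Its arrays read 8.02, 8.12 and 7.99 in control, 7.81, 7.78 and 7.95 in FL, 8.81, 8.86 and 8.72 in mutB1, and 6.49, 6.66 and 6.81 in ΔSAP. The mutB1 arrays lay above, and the ΔSAP arrays below, all others. The mutB1 line rose over control by 0.75 ± 0.08 (SE, limma adjusted p = 8.5e-05), and ΔSAP changed by -1.39 ± 0.08 (adjusted p = 8.93e-07), a 2.63-fold fall. ΔSAP was 4.43-fold below mutB1 (-2.15 ± 0.08, limma adjusted p = 3.03e-08). FL exceeded ΔSAP by 1.20 ± 0.08 (limma adjusted p = 7.03e-06) and differed from mutB1 by -0.95 ± 0.08 (adjusted p = 1.17e-05). FL against control was -0.20, its arrays all below those of control, with a 95% interval of -0.38 to -0.02 and a limma adjusted p of 0.111.

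The leukocyte marker S100a8, a calcium-binding protein of neutrophils that tumour cells can also express, was likewise highest in mutB1, at 7.46 to 7.73, and lowest in ΔSAP, at 5.46 to 5.50. Its means in control and FL were 6.13 and 6.02. The part of S100a8 in the Ccrl2 result was not tested. Of the chemerin pathway, the chemerin gene Rarres2 and the receptors Cmklr1 and Gpr1 were low in all lines, and limma called 0 of 18 tests of these 3 genes. At an unadjusted p under 0.05 it passed 3 of them, all of Rarres2 (ΔSAP below each other line).

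**Figure D3:**
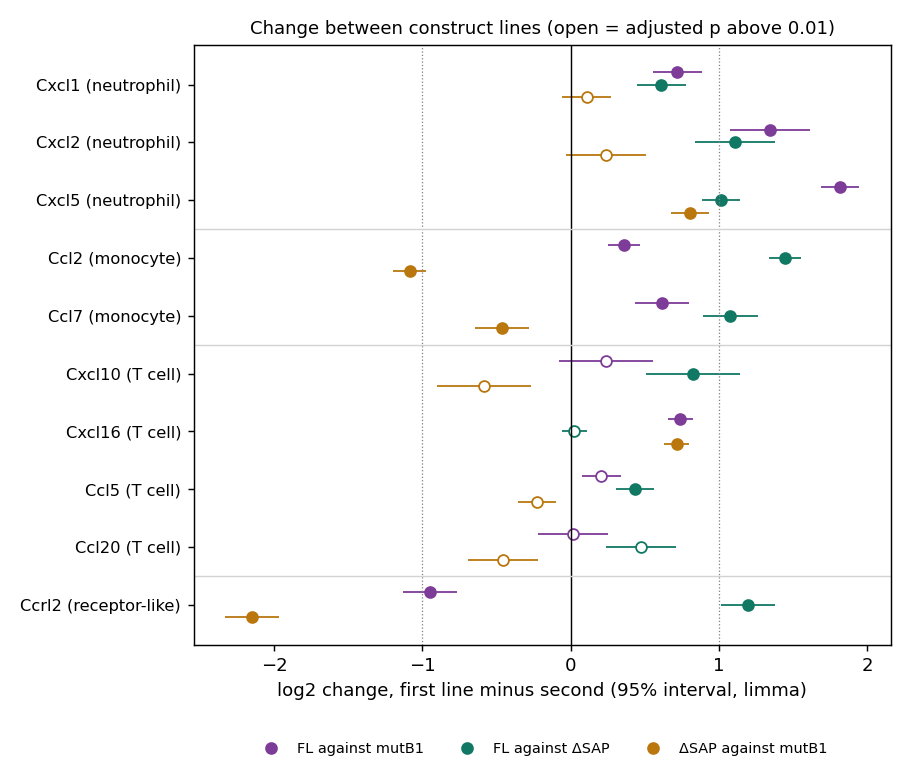
Log2 change of each gene between the construct lines, first line minus second (horizontal axis), with unadjusted 95% limma intervals; filled points have an adjusted p of at most 0.01. Cxcl5 differs most between FL and mutB1 (1.82), Ccl2 most between FL and ΔSAP (1.45), and Ccrl2 most between ΔSAP and mutB1 (-2.15).

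Of 27 other chemokine ligands measured, 21 were low in every line. In all, 7 rose and 1 fell in FL against control, 3 rose and 1 fell in mutB1, and 2 rose and 0 fell in ΔSAP. Over all probe sets the shares higher and lower were 9.61% and 10.4%, 5.83% and 6.89%, and 6.96% and 7.83%, so the counts that fell, and those that rose in ΔSAP, were near or under that background. Their median changes were 0.04, 0.004 and -0.02. FL had 6 higher and 1 lower against mutB1 (8.82% and 9% of all probe sets), and 4 higher and 1 lower against ΔSAP (5.73% and 5.7%). ΔSAP had 2 higher and 1 lower against mutB1 (7.07% and 8%). The lower counts, and the higher count of ΔSAP against mutB1, were again near or under the background. Those that passed with at least a 2-fold change were Cxcl9, Cxcl11 and Ccl19.

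Cxcl9 and Cxcl11, which bind Cxcr3 as Cxcl10 does, rose in all construct lines. Cxcl9 read 5.60 to 5.75 in control, 7.75 to 7.81 in FL, 6.99 to 7.20 in mutB1 and 7.19 to 7.47 in ΔSAP, so that its control mean was low. Cxcl11 read 6.91 to 7.39 in control, 9.68 to 9.75 in FL, 8.96 to 9.29 in mutB1 and 8.63 to 8.73 in ΔSAP. FL exceeded control by 2.12 ± 0.08 for Cxcl9 (SE, limma adjusted p = 1.96e-08) and by 2.53 ± 0.11 for Cxcl11 (adjusted p = 9.13e-08). The 3 Cxcr3 ligands therefore all exceeded control in each construct line, by 1.45 to 2.12 for Cxcl9, 1.49 to 2.53 for Cxcl11 and 1.68 to 2.51 for Cxcl10. Ccl19, a ligand of Ccr7 with near-identical copies in the mouse genome, was 1.09 ± 0.16 higher in FL than in control (limma adjusted p = 0.000475), a call lost in the mean over its probe sets (adjusted p = 0.0459).

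Receptors for the members were mostly at low levels in these cells. Of the 8 receptors of the members measured, Cxcr1, Cxcr2, Cxcr6, Ccr1, Ccr2, Ccr3 and Ccr6 were low in every line, with means between 3.61 and 5.64, and none of these 7 passed in any comparison in limma. Cxcr3, the receptor of Cxcl10, read 8.41 to 8.50 in control, 7.55 to 7.79 in FL, 6.65 to 7.04 in mutB1 and 8.82 to 8.94 in ΔSAP. It was lower in FL than in control (-0.80 ± 0.10, SE, limma adjusted p = 9.89e-05) and lower still in mutB1 (-1.64 ± 0.10, adjusted p = 8.3e-07). ΔSAP exceeded mutB1 by 2.06 ± 0.10 (limma adjusted p = 1.37e-07).

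Cxcr4, the receptor of Cxcl12, was the other receptor with a called 2-fold difference. It read 7.84 to 7.96 in control, 6.94 to 7.16 in FL, 7.43 to 7.67 in mutB1 and 8.30 to 8.44 in ΔSAP, and FL minus ΔSAP was -1.31 ± 0.08 (SE, limma adjusted p = 3.43e-06). Cxcl12 itself was low, between 5.13 and 5.16. Over all 21 receptors measured, 0 rose and 2 fell in FL against control and in mutB1 against control, and 2 rose and 1 fell in ΔSAP against control. FL had 1 up and 2 down against mutB1 and 0 up and 2 down against ΔSAP, and ΔSAP had 2 up and 1 down against mutB1. Between 5.7% and 10.4% of all probe sets were called in each direction of these comparisons, and the receptor counts lie near or under that range.

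Among 25 measured regulators, mostly of NF-kB and interferon signalling, 13 rose and 3 fell in FL against control, 9 rose and 2 fell in mutB1, and 7 rose and 3 fell in ΔSAP. Beside the same shares of all probe sets, the counts that fell were near the background. Those with a called 2-fold change were Irf7 and Stat2, which act in the interferon response. Irf7 read 9.96 to 10.09 in control, 12.20 to 12.25 in FL, 12.03 to 12.21 in mutB1 and 11.87 to 11.94 in ΔSAP, a rise over control of 2.19 ± 0.05, 2.09 ± 0.05 and 1.87 ± 0.05 (SE, limma adjusted p between 1.26e-09 and 5.07e-09). Stat2 rose by 1.40, 1.50 and 1.15 in FL, mutB1 and ΔSAP (limma adjusted p between 6.29e-10 and 4.85e-09). NF-kB genes changed by less: the subunit gene Relb was 0.47 and Rel 0.46 higher in FL than in control, and Rela gave 0.07 without passing. The inhibitor gene Nfkbia changed by -0.29 in FL, -0.67 in mutB1 and -0.39 in ΔSAP against control. The part of these regulators in the chemokine levels was not tested.

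**Figure D4:**
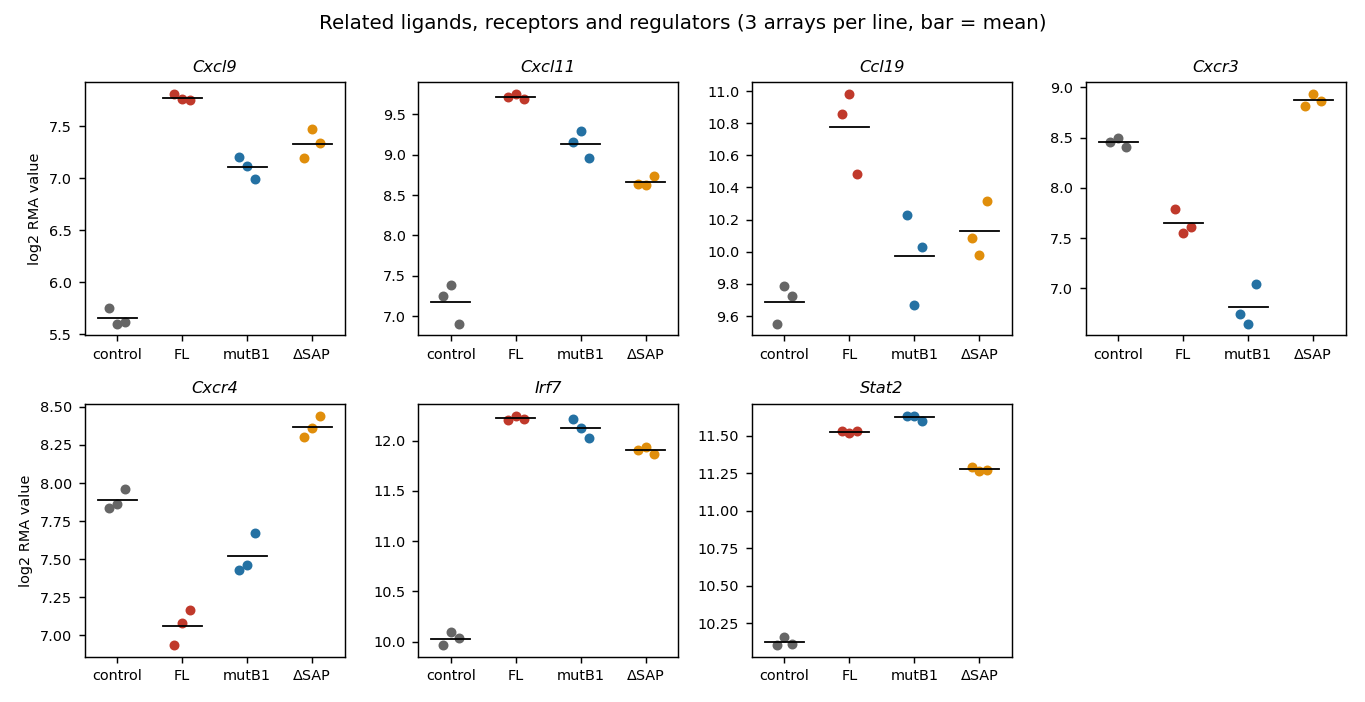
Log2 RMA values of the related ligands, receptors and regulators with a called 2-fold change (vertical axes, a separate scale in each panel) in the 4 lines; points are arrays and bars line means. Cxcl9, Cxcl11, Irf7 and Stat2 lie above control in every construct line, and Cxcr3 ranges from 6.81 in mutB1 to 8.87 in ΔSAP.

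For the 7 members whose line means spanned at least 1 log2 unit, the most similar profiles were sought among the 901 other genes that also spanned at least 1 unit, by Pearson's r over the 12 arrays. The arrays fall into 4 lines, so r mainly reflects 4 means and is given as a description. The nearest genes were Gbp7, Dhx58 and Ccl5 for Cxcl10 (r of 0.994 each), and Oasl1, Cxcl11 and Cxcl10 for Ccl5 (0.994 to 0.996). Gbp7, Dhx58 and Oasl1 are known interferon-induced genes. For Ccl2 they were Parp11, Il15ra and Igf2bp1 (0.988 to 0.996), and for Ccl7 Ecscr, Trim30d and Cfb (0.960 to 0.977). Cxcl5 had Car12, Plk2 and Cd74 (0.985 to 0.990), and Cxcl2 had Dennd4a, Ddit3 and Sdf2l1 (0.969 to 0.975), the last 2 known from endoplasmic reticulum stress. Ccrl2 had Dock10, Arrdc4 and Hpse (0.974 to 0.995). Chemokines stood only in the lists of Cxcl10 and Ccl5, and Cxcl1, Cxcl16 and Ccl20 spanned too little to be candidates.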

How the data were processed

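The deposited table held log2 values of 34760 probe sets, which the authors computed by RMA in Bioconductor's affy package, per the series design text and the labels. The submitters' processing notes name R 2.10.0. The probe set definition, genome build and scan dates were not given in the sources used here. Quantile normalization within RMA gives the arrays a common distribution, so only differences relative to the other genes of an array can be seen.

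GEO's platform annotation gave 21640 of 34760 probe sets a single symbol, of which 21553 were matched to RefSeq by Entrez identifier, and a gene was represented by its brightest probe set. One limma 3.58.1 fit in R 4.3.3 (lmFit, eBayes) of all 12 arrays with 4 line means tested 6 pairs of lines and an F test, adjusted over every probe set by Benjamini-Hochberg. The fit was tested on simulated data. Members and lists were chosen with earlier results of these data known. Genes of the lists were named by rule where they passed with a 2-fold change, or as receptors of members; cluster neighbours, Cxcl12, the sheddases, the chemerin pathway and NF-kB genes were named outside that rule, with their values seen. Alternatives covered normalization, filters, thresholds, the variance prior, the replicate number as a block and omission of each array.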

Additional observations from a re-analysis of the deposited data

How the results depend on the processing

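Of the counts of called members, those of FL against mutB1, FL against ΔSAP, FL against control, mutB1 against control and ΔSAP against control stayed within 1.5 times of their values under every alternative but the 2-fold filter. That filter, with a minimum mean of 4, left 2, 5, 6, 2 and 2 members in that order, and 2 in ΔSAP against mutB1. The count of 5 in ΔSAP against mutB1 became 8 with a trended robust prior, 8 with probe sets of a mean of at least 6 and 8 at an adjusted p of at most 0.05. Omitting single arrays gave 7 to 8, 7 to 9, 8 to 9, 6 to 7, 5 to 6 and 4 to 8 called members in the 6 comparisons, in the order FL against mutB1, FL against ΔSAP, FL against control, mutB1 against control, ΔSAP against control and ΔSAP against mutB1, and 10 in the F test. The highest count of the last comparison came without control replicate 2. No called change of a member reversed sign. The replicate numbers did not pair the arrays: same-numbered arrays of different lines had deviations that correlated at -0.205 to 0.168, and 3 of 12 arrays correlated best with their own number. With the replicate block the 6 comparisons called 7, 8, 8, 6, 5 and 5 members and the F test 9; Ccl20 was the member lost from the F test. The calls lost with the block were Ccl20 in FL (adjusted p = 0.0108) and in mutB1 (0.0179), Cxcl16 in mutB1 (0.0184) and Cxcl2 in ΔSAP (0.0135), all against control. Precision is limited by 3 arrays per line, and Cxcl2, low in all lines, was not tested under the minimum mean of 6.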
